A study of Mus musculus with 6 samples.

Results

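The galectin system was followed through 6 genes on 6 Clariom D Mouse arrays, namely the galectins Lgals1, Lgals3, Lgals4, Lgals8 and Lgals9 and the galectin ligand Lgals3bp. They were chosen by gene symbol from the probe annotation, and where a gene had several probes the one with the highest mean signal over the 6 arrays was to be selected. Each of the 6 had 1 probe, so this measured value decided nothing, and the 6 stand among 30142 genes that have a probe of a single symbol. RNA of platelets from mouse blood and of bone marrow cells labelled megakaryocyte progenitors was measured after PBS (the control), CTC41-EVs or CTC41.5G-EVs. EVs commonly stands for extracellular vesicles, membrane-bound particles shed by cells, and the labels leave these names unexplained. Each of the 6 groups was 1 array of RNA pooled over mice, and per the labels pools were either used as they were or first cleared of white and red blood cells on magnetic beads, without saying which. The sources used here do not give the strain, age and number of the mice, or how much of an agent they received, by which route and when.

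Galectins are proteins made without a signal peptide that bind galactose-containing sugars, above all N-acetyllactosamine, on glycoproteins and glycolipids. Prototype galectins such as galectin-1 (Lgals1) carry a single carbohydrate-recognition domain and pair into dimers, galectin-3 (Lgals3) is a chimera of such a domain and a collagen-like tail, and the tandem-repeat galectins (Lgals4, Lgals8, Lgals9) join a pair of different domains on 1 chain. On platelets, galectin-1 and galectin-8 are known to bind integrins and other surface glycoproteins and to activate the cells, and galectins also mark damaged endosomes for autophagy. Lgals3bp encodes a secreted scavenger-receptor glycoprotein that is bound by galectins and integrins but is itself no galectin.

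Values are log2 signals as deposited, and their precision is limited by the small number of arrays. Arrays of the same cell type correlated at 0.961 to 0.967 in platelets and 0.973 to 0.983 in progenitors, against 0.823 to 0.838 between them. Of 12 platelet and megakaryocyte markers, 10 were on the arrays, and all 10 were called higher in platelets, where their mean lay between 10.23 and 10.68 on the 3 arrays. On the progenitor arrays the same markers averaged 5.40 to 5.61, with 2 of the 10, Clec1b and P2ry12, below the floor of 4.23 under which a gene was not tested. Neutrophil markers averaged 6.68 to 6.86 on the progenitor arrays and 4.99 to 5.26 on the platelet arrays, and 11 of 13 were called lower in platelets. Basophil, mast cell and eosinophil markers averaged 4.94 to 5.14 on the progenitor arrays and 3.97 to 4.05 on the platelet arrays, with 5 of 6 tested called lower in platelets. Erythroid markers averaged 5.94 to 6.12 on the platelet arrays and 4.98 to 5.09 on the progenitor arrays, with 4 of 9 tested called higher in platelets, Alas2, the haem synthesis gene of red cells, by 4.75. Calls are defined in the next paragraph, and over all genes tested 16.2% were called higher and 25.7% lower in platelets. With quantile normalization, array medians and olfactory receptor genes, described below, 10, 10 and 7 of 13 neutrophil markers were called lower. Under each of these, 10 of 10 platelet and 7 of 9 erythroid markers were called higher, and 4 of 6 basophil, mast cell and eosinophil markers lower. The part of such cells in the results on galectins was not tested.

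The comparison of platelets with progenitors asks how the cell types differ over the 3 treatments. It was fitted with limma, with cell type and treatment as additive terms, and a call required a difference of 1.5-fold or more and an adjusted p (Benjamini-Hochberg, over all genes tested) not above 0.05. All 6 genes reached the floor. Of them 2, Lgals1 and Lgals3bp, were called higher in platelets, 0 were called lower and 4 were not called. Over all 18875 genes tested, 16.2% were called higher, 25.7% lower and 41.9% in either direction, so a count of 2 called among 6 does not set these genes apart from the rest. The median difference of the 6 genes was 0.40, beside -0.26 over all genes. The 3 platelet arrays did not overlap the 3 progenitor arrays for 4 of the 6 genes, which held for 78.4% of all genes.

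Lgals1, the prototype galectin, read 9.12 in platelets after PBS, 8.20 after CTC41-EVs and 8.45 after CTC41.5G-EVs. In progenitors it read 5.54, 5.74 and 5.59 in the same order. All platelet arrays lay far above all progenitor arrays, and the 3 progenitor values lay within 0.20 of each other. The means were 8.59 ± 0.48 and 5.63 ± 0.11 (SD, n = 3 arrays each), a 7.82-fold difference of 2.97 with an SE of 0.22 (limma, adjusted p = 2.9e-05), in the same direction in 3 of 3 treatments. In pooled tissue RNA, fewer cells of a type and less RNA per cell cannot be told apart.

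Markers of other cell types that express Lgals1 were read beside it. Monocyte and macrophage markers (15 of 16 on the arrays) averaged 5.01 to 5.06 in platelets and 4.84 to 4.88 in progenitors, and 4 of the 15 were below the floor in each cell type. Of 11 tested, 2 were called higher in platelets, 1 lower and 8 not, with a median of -0.0024. As deposited, Csf1r, the receptor that defines this lineage, had a mean of 4.87 in platelets and 4.88 in progenitors. There it did not differ beyond its error (difference -0.0024, SE 0.077). Lyz2, the lysozyme gene of monocytes and granulocytes, was called higher in platelets by 2.94, as was Ly6c2 by 0.94, while Siglec1, a macrophage lectin gene, was called lower at -0.64. Stromal and endothelial markers (12 of 13 on the arrays) averaged 5.29 to 5.41 in platelets and 4.82 to 4.94 in progenitors. Of 10 tested, 2 were called higher in platelets, Dcn (decorin, a matrix proteoglycan) by 4.09 and Pecam1 (CD31, which platelets also carry) by 2.76, and 2 lower, Col1a1 at -0.59 and Pdgfrb at -0.70, with a median of 0.0045. Over all genes tested, 16.2% were called higher and 25.7% lower, with a median of -0.26. The arrays were also rescaled by quantiles, array medians and olfactory receptor genes, as described below. In that order, 5, 5 and 7 of the 11 and 4, 4 and 6 of the 10 were called higher, and 0 lower. Over all genes 21.9%, 24.8% and 40.2% were then called higher. Siglec1, Col1a1 and Pdgfrb were thus called lower only as deposited. The part of such cells in the Lgals1 signal was not tested.

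Lgals3bp, the secreted ligand, read 7.35 after PBS, 7.21 after CTC41-EVs and 7.67 after CTC41.5G-EVs in platelets. Its progenitor values were 5.92, 6.09 and 6.34. The cell types did not overlap, with means of 7.41 ± 0.24 and 6.12 ± 0.21 (SD, n = 3 arrays each). The difference was 1.29 with an SE of 0.13, or 2.45-fold (limma, adjusted p = 0.00013), again in 3 of 3 treatments.

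Lgals8, a tandem-repeat galectin, read 4.70, 4.69 and 4.86 in platelets (PBS, CTC41-EVs, CTC41.5G-EVs) and 4.17, 4.35 and 4.43 in progenitors. Its platelet arrays all lay above its progenitor arrays, and the difference of 0.43 (SE 0.09; limma, adjusted p = 0.0035) passed the p threshold but came to only 1.35-fold, so it was not called. Lgals4, a tandem-repeat galectin best known from gut epithelium, stood the other way round. It read 4.65, 4.77 and 4.63 in platelets and 4.89, 4.91 and 5.12 in progenitors, a difference of -0.29 (SE 0.09; limma, adjusted p = 0.027) or 1.22-fold, also not called. Its probe carries 2 gene identifiers, of which 1 is in the RefSeq table, so the transcript it reads is uncertain. Both genes had signals close to the floor, where background makes up more of the value.

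Lgals3, the chimera galectin of macrophages and many other cells, was level across the experiment. It read 5.64, 5.70 and 5.72 in platelets and 5.77, 5.70 and 5.86 in progenitors, and the groups overlapped. The difference of -0.09 (SE 0.10; limma, adjusted p = 0.42) did not pass the test.

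Lgals9, a tandem-repeat galectin that binds the T cell receptor Tim-3 and is known as an interferon-inducible gene, read 6.73, 6.52 and 6.69 in platelets. In progenitors it read 5.89 after PBS, 6.25 after CTC41-EVs and 6.71 after CTC41.5G-EVs. The last of these lay between the platelet values, so the cell types overlapped at 1 of the 3 progenitor arrays. The means were 6.65 ± 0.11 and 6.28 ± 0.41 (SD, n = 3 arrays each), a difference of 0.36 (SE 0.18; limma, adjusted p = 0.098) that was not called.

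**Figure D1:**
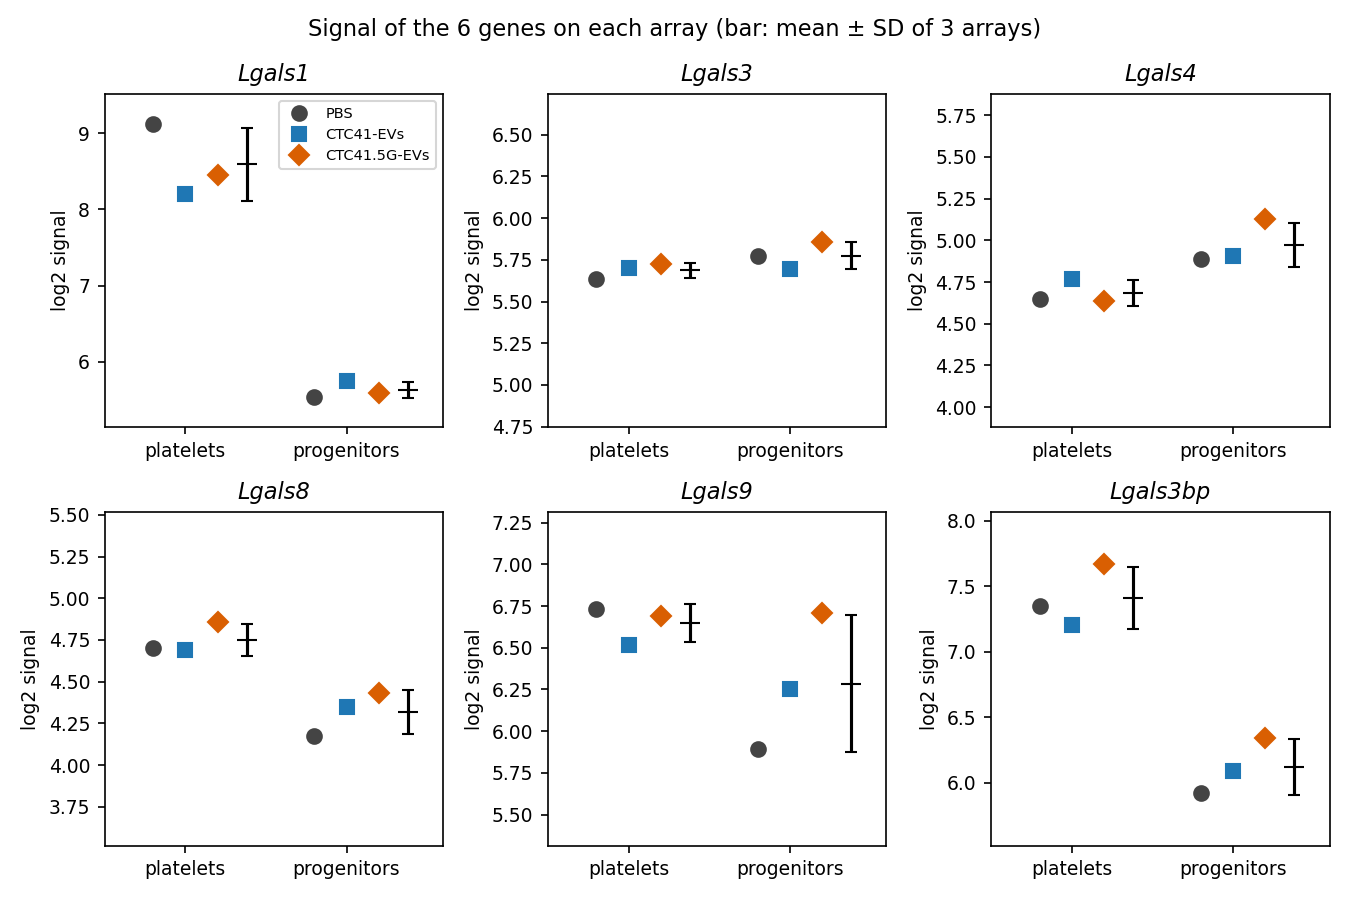
Log2 signal (y axis, scaled separately in each panel) of the 6 genes on the 3 platelet and 3 progenitor arrays, with the treatment as symbol and the bar as mean ± SD of the 3 arrays. Lgals1 and Lgals3bp are higher on every platelet array, Lgals1 is highest in platelets after PBS (9.12), and Lgals9 spans 5.89 to 6.71 on the progenitor arrays.

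The direction of the small differences depended on how the arrays were set to a common level. As deposited, the median of all genes was 0.26 lower in platelets, and 38.7% of the called genes were higher there. After quantile normalization the median was 0.05 and this share 64.5%, and after centring each array on its median 0.11 and 71%. After centring on olfactory receptor genes they were 0.45 and 88%. The olfactory receptor genes were taken as a base, and whether they are silent in both cell types was not tested. Lgals1 and Lgals3bp were called higher under all 4 scalings, at 2.97 to 3.68 and 1.29 to 2.01. Lgals8 was called under the 3 others, at 0.79, 0.81 and 1.15, and Lgals9 under array medians (0.74) and olfactory receptor genes (1.08). Lgals3 and Lgals4 changed sign, to 0.09, 0.29 and 0.63 and to 0.07, 0.09 and 0.43 respectively, and of these only Lgals3 under olfactory receptor genes was called. Relative to the median of all genes as deposited, Lgals1 stood 3.23 higher, Lgals3bp 1.56, Lgals8 0.69, Lgals9 0.63 and Lgals3 0.17, while Lgals4 stood at -0.03.

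Of 8 other listed genes of the family, 5 were found and 4 reached the floor. Lgalsl, which encodes a galectin-like protein related to galectin-3, read 6.81, 6.76 and 7.31 in platelets and 5.00, 5.22 and 5.29 in progenitors. It was called higher in platelets by 1.79 (SE 0.13, 3.46-fold; limma, adjusted p = 2.5e-05), and it was called under all 4 scalings. Grifin, a galectin-related gene known from the lens, was called lower at -0.60 (SE 0.11; limma, adjusted p = 0.0022), but was not called under the other scalings and turned to 0.12 with olfactory receptor genes. Lgals12, known from adipocytes, differed by -0.43 (limma, adjusted p = 0.0083) and Lgals7, of stratified epithelium, by -0.13 (adjusted p = 0.24), neither called. Both turned positive with olfactory receptor genes, at 0.28 and 0.59, where Lgals7 was called higher (limma, adjusted p = 0.00076), and Lgals7 was positive but not called under the other scalings. Lgals2 was below the floor, with means of 4.06 and 3.79.

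**Figure D2:**
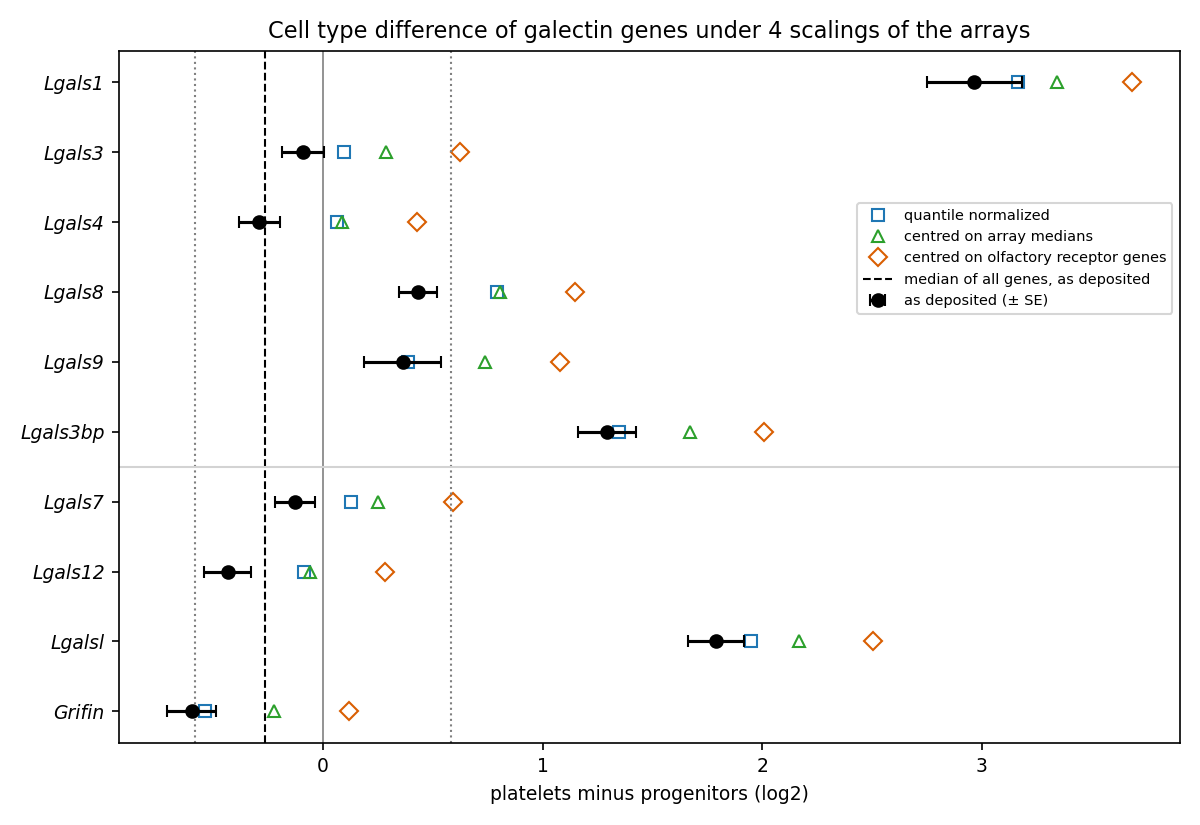
Difference of platelets minus progenitors (x axis, log2) for the 6 genes and, under the grey line, 4 other galectin genes, as deposited (filled, ± SE of the fit) and under 3 other scalings. Dotted lines mark 1.5-fold and the dashed line the median of all genes as deposited (-0.26). Lgals1, Lgals3bp and Lgalsl stay above 1.5-fold under all 4, while Lgals3 and Lgals4 move across 0.

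Galectins act through glycoproteins on which they find their sugars. Of 32 listed counter-receptors and ligands, 29 were on the arrays and 22 were tested, of which 13 were called higher in platelets, 1 lower and 8 not called, with a median difference of 2.35, beside 16.2% higher, 25.7% lower and a median of -0.26 over all genes tested. Many of these are platelet surface or granule proteins, and 3 of them, Itga2b, Itgb3 and Gp6, also stand among the platelet markers. The coagulation factor gene F5 was higher by 5.16 (SE 0.13), the lysosomal membrane gene Lamp2 by 4.87 (SE 0.14) and the collagen receptor gene Gp6 by 4.33 (SE 0.18), with adjusted p-values of limma of 1.9e-06, 1.9e-06 and 3.0e-06. Spn, the sialomucin CD43 and a known binding partner of galectin-1 on leukocytes, was lower in platelets, at 4.67 ± 0.09 against 5.64 ± 0.21 (SD, n = 3 arrays each; difference -0.98, SE 0.09; limma, adjusted p = 7.0e-05). It kept that sign under all scalings but was not called with olfactory receptor genes, at -0.26. Havcr2, which encodes Tim-3, and Ptprc, which encodes CD45, were below the floor and not tested.

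The next list holds sugar-building genes. Among 22 tested glycosyltransferase, mannosidase and transporter genes that make and branch N-acetyllactosamine, 7 were called higher in platelets, 1 lower and 14 not called, with a median of -0.04, beside 16.2% higher and 25.7% lower over all genes. C1galt1, the core 1 synthase of O-linked chains, was higher by 2.23 (SE 0.10, limma adjusted p = 4.4e-06). The Golgi mannosidase genes Man1a and Man1a2, which trim N-linked chains before they branch, were higher by 1.58 and 1.43. B4galt3, which encodes a galactosyltransferase, was called lower at -0.60, was not called under the other scalings and turned to 0.12 with olfactory receptor genes. Mgat5, the branching enzyme whose products are strong galectin-3 ligands, read 5.87, 5.85 and 5.98 in platelets and 4.90, 5.44 and 5.46 in progenitors and was called higher, by 0.64 (limma, adjusted p = 0.0034); it and B4galt1 below were named for their role after their values were seen. B4galt1, a main galactosyltransferase of N-acetyllactosamine, was called higher by 1.38 (limma, adjusted p = 1.7e-05).

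Sialic acid added to the terminal galactose changes which galectins can bind. Of 17 tested sialyltransferase, sialidase and sialic acid synthesis genes, 5 were called higher in platelets, 2 lower and 10 not called, with a median of -0.03, where all genes gave 16.2% and 25.7%. Cmas, which activates sialic acid, was higher by 2.62 (SE 0.13), and the α2,3-sialyltransferase genes St3gal1 and St3gal5 by 2.15 (SE 0.14) and 0.89 (SE 0.12; limma, adjusted p at most 0.00046 for the 3 genes). The sialidase gene Neu4 at -0.69 and the α2,6-sialyltransferase gene St6gal2 at -0.62 were called lower, were not called under the other scalings and turned to 0.03 and 0.10 with olfactory receptor genes. St6gal1 is the main α2,6-sialyltransferase of blood cells, and its product blocks galectin-1. It stood at -0.44 (SE 0.08, limma adjusted p = 0.0020), was not called, and was named after its value was seen. With olfactory receptor genes the median of all genes moved from -0.26 to 0.45, a larger step than this difference, so its sign is not settled.

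Of 21 tested genes that act with galectins on damaged membranes, 10 were called higher in platelets, 0 lower and 11 not called, with a median of 0.48, where all genes gave 16.2% and 25.7%. The Atg8 family genes Gabarapl1 and Gabarapl2 were higher by 4.46 (SE 0.14) and 3.15 (SE 0.17), and the autophagy receptor gene Tax1bp1 by 2.22 (SE 0.10), with adjusted p-values of limma of 1.9e-06, 8.3e-06 and 4.1e-06. Tax1bp1 averaged 4.04 in progenitors, below the floor, so the size of its difference depends on background. Calcoco2, whose human form recognises galectin-8 on damaged vesicles, read 5.23, 5.39 and 5.20 in platelets and 5.16, 5.06 and 5.20 in progenitors. Its difference was 0.13 (SE 0.10, limma adjusted p = 0.24). Trim16, a partner of galectin-3, stood at -0.29 (SE 0.08, limma adjusted p = 0.015), and neither gene was called. The median of all genes moved further, from -0.26 to 0.45 with olfactory receptor genes, so the sign of Trim16 is not settled. With olfactory receptor genes as the base, the counts called higher of the 4 lists became 15 of 22, 12 of 22, 10 of 17 and 18 of 21, with 0 called lower, while over all genes 40.2% were then called higher and 5.49% lower.

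**Figure D3:**
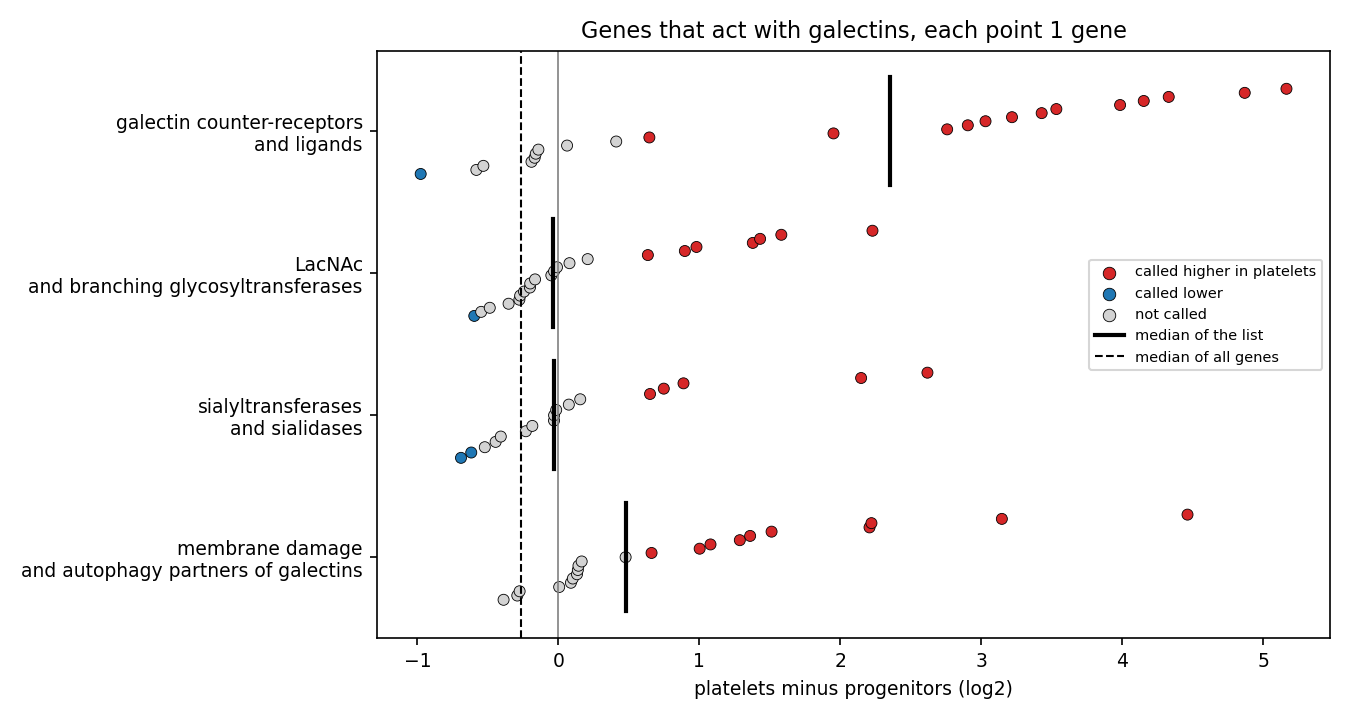
Difference of platelets minus progenitors (x axis, log2, as deposited) for each tested gene of 4 lists of galectin partners; the position within a row only spreads the points. Thick lines mark the median of each list, 2.35 for counter-receptors, -0.04 and -0.03 for the sugar-building and sialylation lists and 0.48 for the membrane damage list, beside -0.26 for all genes (dashed).

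Within a cell type, each EV group was compared with the PBS group as 1 array against 1 array, with no replicate and no test. Both EV comparisons of a cell type share its PBS array. Genes were counted at 1.5-fold where the mean of the cell type reached 5.07, which Lgals4 and Lgals8 did not. In platelets, Lgals1 was 0.92 lower (1.89-fold) after CTC41-EVs than after PBS, past 1.5-fold as were 2.79% of the 8247 genes counted, or 2.34% in the lower direction. Only 15 of those genes, Lgals1 among them, stood as low or lower. After CTC41.5G-EVs it was 0.67 lower (1.59-fold), where 1.95% of genes were past 1.5-fold, 1.31% lower, and 52 genes stood as low or lower. The CTC41.5G-EVs array read 0.25 above the CTC41-EVs array as deposited, 0.29 with array medians and 0.21 with olfactory receptor genes. With quantile normalization this difference was -0.022, and those from PBS were -0.78 and -0.81, so the order of the EV arrays depends on the scaling. Both differences from PBS rest on the single PBS array at 9.12, and the SD of Lgals1 over the platelet arrays, 0.48, was above that of 99.4% of genes.

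Like Lgals1, 31.2% of all genes tested read highest on the platelet PBS array. So did 6 of 10 erythroid, 7 of 12 stromal and endothelial and 4 of 9 T and NK cell markers. Basophil, mast cell and eosinophil markers did so in 4 of 10, and monocyte and macrophage markers in 5 of 15. The other lists gave 3 of 11 stem and progenitor, 3 of 12 epithelial, 1 of 9 B cell, 1 of 13 neutrophil and 0 of 10 platelet markers. These marker counts include genes below the floor. Other markers read lowest on the platelet PBS array, such as Cd14 at 5.42, 5.63 and 5.68. Cd14 and the 3 genes that follow were picked out after their values were seen. Dcn read 8.14, 7.62 and 7.50 (PBS, CTC41-EVs, CTC41.5G-EVs), the monocyte gene Ly6c2 read 6.04, 5.49 and 5.62, and the granzyme gene Gzma read 5.33, 4.91 and 4.89. The mean of the erythroid markers was 6.12, 5.94 and 6.01, and that of the stromal and endothelial markers 5.41, 5.29 and 5.32. That of the T and NK cell markers was 4.76, 4.64 and 4.68, and that of the monocyte and macrophage markers 5.03, 5.06 and 5.01. The part of such cells in the Lgals1 difference was not tested.

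In progenitors, Lgals1 differed from PBS by 0.20 after CTC41-EVs and 0.04 after CTC41.5G-EVs, and the second value turned to -0.062, -0.024 and -0.028 under the 3 other scalings. The opposite signs of the cell types were set against each other in a fit that took both EV arrays of a cell type as replicates, a model added after the values were seen. The EV difference of Lgals1 was -0.79 (SE 0.22) in platelets and 0.12 (SE 0.22) in progenitors, and the platelet effect minus the progenitor effect was -0.92 (SE 0.31; limma, adjusted p = 0.84). Each PBS arm is 1 array, the EV types differ and the gene was picked for these signs, so the value is a description and settles nothing about the cell types. In that fit 0% of genes were called for the difference, with 1009 of 18875 at an unadjusted p under 0.05. For EVs against PBS, 0.0053% of genes were called in platelets and 0% in progenitors.

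Lgals9 varied in the progenitors rather than in the platelets. From 5.89 after PBS, its progenitor signal was 0.36 higher after CTC41-EVs and 0.82 higher (1.76-fold) after CTC41.5G-EVs, and the latter array stood 0.46 above the former. Past 1.5-fold were 3.2% of the 10858 genes counted after CTC41-EVs (3.09% higher), 6.22% after CTC41.5G-EVs (5.47% higher) and 1.39% between the EV types (0.608% higher, 0.783% lower). Of the 10858 genes, 194 stood as high as Lgals9 or higher after CTC41.5G-EVs against PBS and 231 between the EV types. The median of all genes was itself 0.13 higher after CTC41.5G-EVs, and Lgals9 stood 0.69 above that median; under the other scalings its difference was 0.74 to 0.79. In platelets Lgals9 differed from PBS by -0.21 and -0.04. Its platelet effect minus its progenitor effect was -0.71 (SE 0.33; limma, adjusted p = 0.95), with the same limits.

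In progenitors, 4 of the 6 genes, Lgals4, Lgals8, Lgals9 and Lgals3bp, read lowest after PBS and highest after CTC41.5G-EVs, an order found in 36.7% of all genes tested. Lgals3bp stood at 0.17 and 0.43 above PBS after CTC41-EVs and CTC41.5G-EVs. In platelets it read -0.14 and 0.32 against PBS, and the CTC41.5G-EVs array stood 0.46 above the CTC41-EVs array, where 3.67% of genes were past 1.5-fold. None of these differences reached 1.5-fold. The mean of the platelet and megakaryocyte markers stood in the same order as Lgals3bp on the platelet arrays. It was 10.23 after CTC41-EVs, 10.29 after PBS and 10.68 after CTC41.5G-EVs. Of these markers, Pf4 (12.35, 12.78 and 13.04 after PBS, CTC41-EVs and CTC41.5G-EVs) and Ppbp (12.10, 12.42 and 12.77) read lowest after PBS instead. The median of the 17 counted counter-receptors was 0.38 higher after CTC41.5G-EVs than after CTC41-EVs, beside 0.07 over all genes counted. Of the 17, 2 were past 1.5-fold, Itgb3 at 0.75 and Vwf at 0.66. The part of platelet content in the Lgals3bp difference was not tested. Lgals3 differed by 0.16 or less, and Lgals8 by 0.26 or less, between any pair of arrays of a cell type, and Lgals4 by 0.24 or less.

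**Figure D4:**
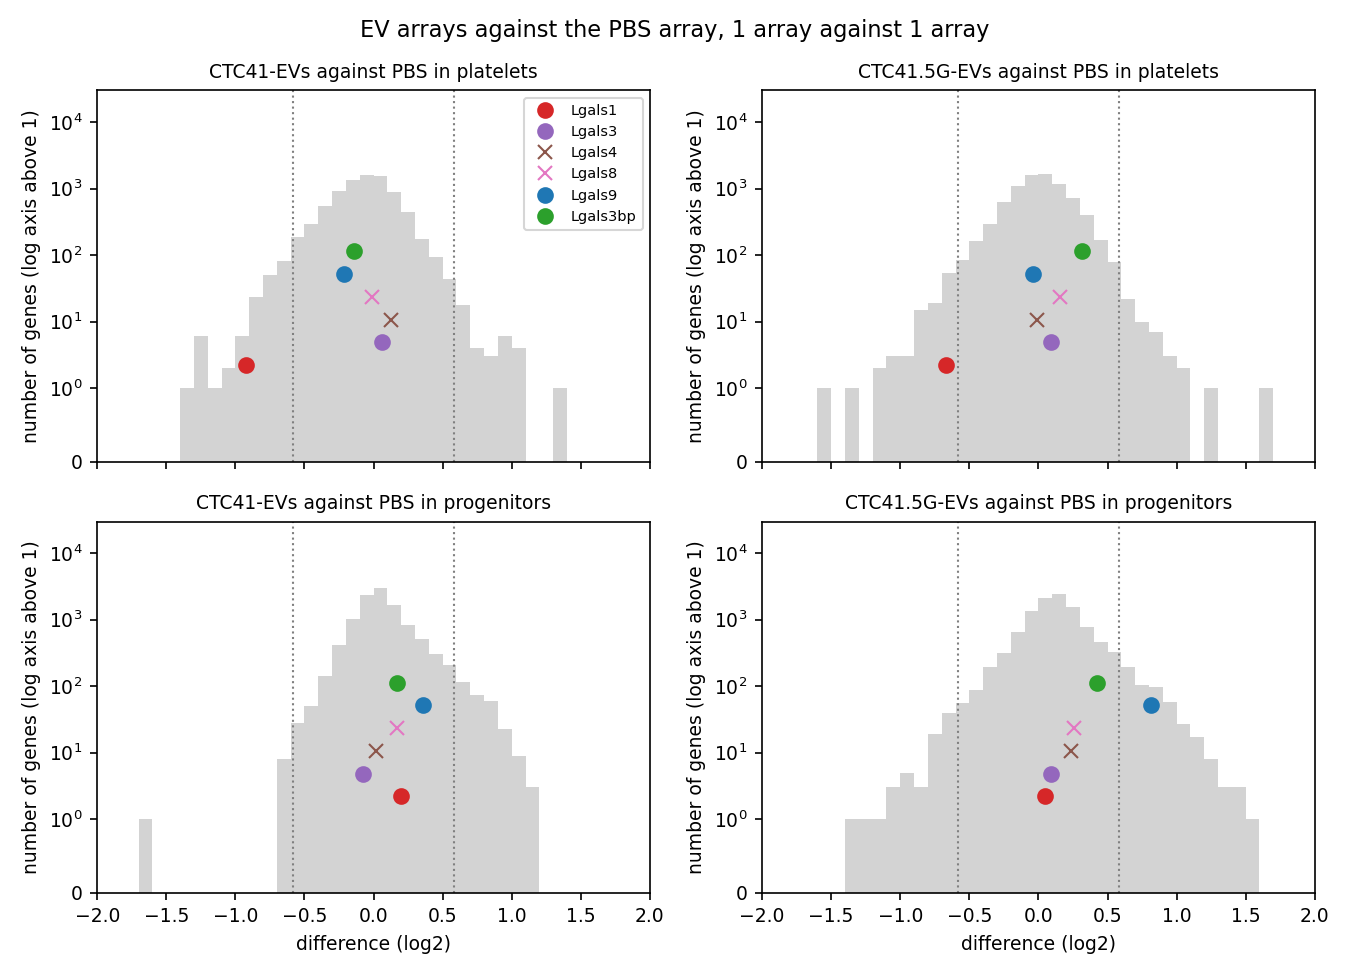
Difference of an EV array minus the PBS array (x axis, log2) within platelets and progenitors; grey bars count the genes past the floor in each bin of 0.1 (y axis, logarithmic above 1), and dotted lines mark 1.5-fold. The coloured marks show the 6 genes at their difference, with an arbitrary height, as crosses where the gene was below the floor; Lgals1 lies at -0.92 and -0.67 in platelets and Lgals9 at 0.82 in progenitors after CTC41.5G-EVs.

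Averaged over both cell types in the additive fit, no EV contrast gave a call. With limma, 0% of genes were called for CTC41-EVs against PBS, for CTC41.5G-EVs against PBS and for CTC41.5G-EVs against CTC41-EVs, with 577, 1171 and 1157 of 18875 genes at an unadjusted p under 0.05. For CTC41.5G-EVs against PBS, Lgals9 stood at 0.39 (SE 0.21; limma, adjusted p = 0.81), Lgals3bp at 0.37 (SE 0.16; adjusted p = 0.80) and Lgals8 at 0.21 (SE 0.11; adjusted p = 0.80). Lgals1 stood at -0.31 (SE 0.27; adjusted p = 0.86), and at -0.36 (SE 0.27) for CTC41-EVs against PBS. Without the platelet PBS array the Lgals1 values were 0.15 and 0.10, and without the platelet CTC41-EVs array the second was 0.022, so the sign of these averages depends on single arrays.

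The stretches of 250 bases before the gene start are printed for Lgals9 and Lgals3bp, the genes of the table with the largest differences between CTC41.5G-EVs and PBS in progenitors (0.82 and 0.43). They come from RefSeq (GRCm38.p6), whose promoter table held 5 of the 6 genes, all but Lgals1. The Lgals9 stretch lies at chr11:78984925-78985174 and the Lgals3bp stretch at chr11:118401960-118402209, both on the minus strand. Both strands were searched for GAAA followed by any 2 bases and a second GAAA, the core of the element bound by interferon-activated factors, and capitals mark a match.
Lgals9: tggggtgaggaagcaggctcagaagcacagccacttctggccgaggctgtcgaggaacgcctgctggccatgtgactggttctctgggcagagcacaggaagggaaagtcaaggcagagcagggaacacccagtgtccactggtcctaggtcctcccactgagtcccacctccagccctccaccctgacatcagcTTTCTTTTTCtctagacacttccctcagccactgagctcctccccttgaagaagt
Lgals3bp: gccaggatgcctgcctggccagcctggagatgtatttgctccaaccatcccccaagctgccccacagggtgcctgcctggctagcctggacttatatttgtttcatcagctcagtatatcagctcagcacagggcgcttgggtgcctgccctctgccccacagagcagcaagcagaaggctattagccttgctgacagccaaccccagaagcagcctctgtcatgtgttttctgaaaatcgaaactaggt
Of the 5 genes, only Lgals9 held a match, on the strand opposite to the gene, beginning 55 bases before the start. Of 32851 promoter windows of the same length, 978 (2.98%) held one. AGATAA, a form of the GATA factor motif, was in none of the 5 and in 9.99% of all windows. A match is a description of letters and no evidence of binding, and no match says only that these letters are not in this window.

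The genes whose pattern over the 6 arrays was most like that of each gene above 5.07 were found by Pearson's r after each cell type was centred on its own mean, among 9666 genes. For Lgals1 these were Nfya (r = 0.997), a subunit of the transcription factor NF-Y, Yrdc (0.997), a tRNA-modifying enzyme, and the heat shock gene Hsph1 (0.995). On the platelet arrays Nfya read 5.23, 5.02 and 5.07 (PBS, CTC41-EVs, CTC41.5G-EVs), a smaller span than that of Lgals1. For Lgals9 they were Zfpm1 (0.999), the GATA1 cofactor FOG1 needed for megakaryocytes, Pisd-ps2 (0.999) and Tpt1 (0.999). On the progenitor arrays Zfpm1 read 5.81, 5.98 and 6.18, a smaller step than that of Lgals9. For Lgals3bp they were Cbl (0.998), a ubiquitin ligase that limits thrombopoietin signalling, Sephs2 (0.998), which supplies selenium for selenoproteins, and the adenylate cyclase gene Adcy4 (0.998). For Lgals3, whose values hardly varied, they were Gm16011 (0.993), Gatd1 (0.992) and 4930579G24Rik (0.992). The 6 points come from 6 pools, and the values of a pool on all genes share its array. Few free values remain after centring, so the best of 9666 unrelated genes can reach an r of this size. A link of these genes to the galectins was not tested.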

How the data were processed

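RNA of 3 platelet and 3 progenitor groups was measured, 1 array each. The deposited values are log2 signals that the authors made with Affymetrix Expression Console 1.4.1.46, per the submitters' processing notes, while the series' design text names MAS5.0, so the scaling between arrays is unclear. No source used here gives the genome build. Values were used as deposited. Of 72688 probes, 30604 had 1 gene symbol and were used, 2146 had several and 39938 none. Of the first, 22818 matched RefSeq genes, which updated 827 symbols. Genes entered limma 3.58.1 (R 4.3.3; intensity trend, 2 residual degrees of freedom) where their mean reached the 50th percentile of probes. The fit was run on simulated data with independent noise on each array and differences set between the cell types only. That run held no shift of whole arrays and no EV difference, so it does not bear on the scaling or the EV contrasts. Treatment is a term of the additive fit, so its p-values rest on how the difference between platelets and progenitors varied over the 3 treatments. The variances were moderated over all genes, and no replicate of a group enters them. In the interaction fit they rest on the difference between the EV types within a cell type. The genes and lists were chosen with earlier results of these data known. Named are the 6 genes, other galectins, the 3 largest differences called in each direction per list and the 3 genes most like each of the 6 above 5.07, and other partner and marker genes were named for their role or as examples after their values were seen. Scaling, floors, probes, the variance trend, left-out arrays, cell type alone and the Wilcoxon test of the design text were alternatives. The interaction fit and the fit without both PBS arrays were added after seeing the data.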

Additional observations from a re-analysis of the deposited data

Results flagged for a closer look

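Lgals1 stood out because its EV arrays lay below the PBS array in platelets, at -0.92 after CTC41-EVs and -0.67 after CTC41.5G-EVs, and above it in progenitors, at 0.20 and 0.045. Lgals9 stood out for the same reason, at -0.21 and -0.040 in platelets and 0.36 and 0.82 in progenitors. Opposite signs of this kind occurred in 4132 of 18875 genes (21.9%). A fit with both EV arrays as replicates gave an adjusted p (limma) of 0.84 for Lgals1 and 0.95 for Lgals9, but each PBS arm is 1 array and the genes were picked for these signs, so whether the cell types differ is not settled by it. The last of the Lgals1 values turned negative under the 3 other scalings.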

How the results depend on the processing

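The array number limits every result, and no sample has a replicate of its own group. Each of the 6 genes had 1 probe, so the probe rule could not change its value. Centring on array medians or olfactory receptor genes raised the difference of platelets minus progenitors alike for every gene. These 2 scalings therefore could not lower the differences of Lgals1 and Lgals3bp. Within these limits, the calls of Lgals1 and Lgals3bp between the cell types held under all scalings, floors and variance models, with cell type alone, and without each array in turn. They were lost only in the exact Wilcoxon test of the design text, whose smallest p with 3 arrays against 3 is 0.1, and which called 0 genes higher and 0 lower (adjusted p = 0.13 for Lgals1, at 2.97, and for Lgals3bp, at 1.29; 0 genes at an unadjusted p under 0.05). With quantile normalization, array medians and olfactory receptor genes in turn, Lgals8 became called at 0.79, 0.81 and 1.15, Lgals3 turned to 0.094, 0.29 and 0.63 and Lgals4 to 0.066, 0.087 and 0.43, and Lgals9 became called at 0.74 with array medians and 1.08 with olfactory receptor genes. Genes called lower numbered 2282, 1911 and 1036 in that order, and genes called higher 4673 with medians and 7595 with olfactory receptor genes. A floor at the 75th percentile, which leaves fewer genes to test, gave 2356 lower, and one at the 90th gave 1430 higher and 685 lower. Lgals4 and Lgals8 lay below both of these floors and Lgals3 below the second, so they have no value there. For the EV contrasts over both cell types, none of which was called for any of the 6 genes, the sign turned for Lgals1 between the EV types with quantile (-0.13) and olfactory scaling (-0.021), for Lgals4 there with olfactory scaling (-0.028), for Lgals3bp after CTC41-EVs with medians (-0.011) and for Lgals3 after CTC41-EVs with olfactory scaling (0.0028). Leaving out each array in turn moved CTC41-EVs against PBS from -0.82 to 0.098 for Lgals1 (positive without the platelet PBS or the platelet CTC41-EVs array), -0.073 to 0.063 for Lgals3, -0.041 to 0.19 for Lgals4, -0.29 to 0.43 for Lgals9 (negative without the progenitor PBS array) and -0.12 to 0.14 for Lgals3bp. It moved CTC41.5G-EVs against PBS from -0.77 to 0.15 for Lgals1 and -0.036 to 0.26 for Lgals4, and CTC41.5G-EVs against CTC41-EVs from -0.33 to 0.43 for Lgals1 and -0.11 to 0.19 for Lgals4. Over all genes it gave 0 to 1 called higher and 0 to 2 lower after CTC41-EVs, 0 to 2 lower after CTC41.5G-EVs, and 0 to 3 higher and 0 to 1 lower between the EV types. Within progenitors, Lgals3 read -0.14 after CTC41-EVs with quantile scaling, and after CTC41.5G-EVs -0.024, 0.019 and 0.016 under the 3 scalings; between the EV types it read 0.093 with medians and 0.068 with olfactory scaling. Lgals8 read 0.19 with medians and 0.18 with olfactory scaling after CTC41.5G-EVs, and 0.014, 0.016 and -0.0088 between the EV types. Within platelets, Lgals1 between the EV types turned from 0.25 to -0.022 with quantile scaling. The cause of these shifts was not tested. The treatment terms pair the platelet and progenitor array of a treatment; with cell type alone, 3064 genes were called higher and 4850 lower, and no call of the 6 genes changed.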
